A study of Mus musculus with 6 samples.

Results

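Mouse genes listed in the deposited table under a provisional name, a Gm number or a Rik clone name, were followed in TC-1 cells. The cells were treated with interferon-gamma (IFN-gamma) or left untreated. The 270 genes were the rows of the deposited count table whose symbol is Gm with a number or ends in Rik, and whose counts over the 6 libraries sum to 600 or more. They comprised 62 Gm rows and 208 Rik rows, out of 3187 such rows at any count and 23282 rows in all. The sum of counts thus chose the genes, and Gm12250, Gm4951, Gm4070 and F830016B08Rik, which meet the same rule, were left out of the set by name. All 4 of these were higher after IFN-gamma, with log2 fold changes of 10.56, 6.62, 3.26 and 8.53, so the counts of higher genes given here are low by 4. Sums ran from 607 (2610020H08Rik) to 41112 (one row of Gm1821), with a median of 1680.5. Just inside the limit stood 2610020H08Rik (607), 2010111I01Rik (609) and 6330549D23Rik (617), and just outside it Gm10069 (598), Gm6634 (590) and 4933400F21Rik (584).

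Total RNA was sequenced from 3 IFN-gamma libraries, from cells given 20 ng/ml murine recombinant IFN-gamma for 72 h, and from 3 untreated libraries grown for the same time. TC-1, per the labels a lung adenocarcinoma line of the mouse, was made by bringing papillomavirus oncogenes of human origin and an activated ras gene into lung cells, and all 6 libraries share these. Nothing in the labels says that replicates were separate cultures, and the p-values then reflect a spread between libraries that may be technical. The design asks how expression differs between treated and untreated cells. Here that question is put to the genes listed under Gm and Rik names, of which 89 now carry another name in RefSeq.

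Gm names (for "gene model") and Rik names (for the RIKEN cDNA collection) are placeholders given before a function is known. The transcripts behind them are a mixture of protein-coding genes, long non-coding RNAs (lncRNAs) and pseudogenes, copies of other genes that have lost their coding capacity but may still be transcribed. IFN-gamma acts through its receptor and JAK kinases, and promoters of its targets often carry GAS elements or ISRE elements, of which ISRE elements are bound by factors such as IRF1. Among its strongest targets in mouse cells are families of large GTPases that stand in clusters of near-identical copies and pseudogenes, many of which have kept a Gm name.

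The libraries held between 8511379 and 10861336 gene counts (IFN-gamma) and between 7302687 and 9350991 (untreated), and the 270 genes took 1.527% to 1.601% of the counts of an IFN-gamma library and 1.514% to 1.551% of an untreated one. The ribosomal precursor row Rn45s took 6.18% to 7.46% in IFN-gamma and 5.81% to 9.69% in untreated libraries. All 12 genes of an interferon response check list were higher, with log2 fold changes from 1.14 (B2m) to 7.57 (Iigp1). Most epithelial markers had few or no counts in both groups: Epcam had no count in the IFN-gamma libraries, and in the untreated ones 2 counts in replicate 1 alone. Krt19 went the other way, with 102, 58 and 69 counts in IFN-gamma libraries 1 to 3. It had 116, 100 and 157 counts in untreated libraries 1 to 3, and was lower after IFN-gamma (log2 fold change -0.81). The summed level of 9 epithelial markers was 8.48 to 10.2 CPM in IFN-gamma and 16.7 to 18.6 CPM in untreated libraries, and 1 of the 2 tested was lower. Of 10 leukocyte markers 2 were tested and 1 was higher, with summed levels of 47.0 to 56.7 CPM (IFN-gamma) and 38.9 to 48.5 CPM (untreated). The 2 tested were Cd14, with 2112 counts over the 6 libraries (log2 fold change 0.05), and Cd68, with 466 counts, which was higher (0.73). Ptprc had 2 counts in all. Of 3 endothelial markers 0 were tested, and they summed to 0.838 to 1.30 CPM in IFN-gamma and 0.749 to 1.78 CPM in untreated libraries. Fibroblast and mesenchymal markers summed to 6853 to 7266 CPM in IFN-gamma and 9402 to 9680 CPM in untreated libraries, and 4 of 6 were lower. The part of these shifts in the results below was not tested. In bulk samples, fewer cells of a type and less RNA per cell cannot be told apart.

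Most of the 270 genes differed little between the groups. By edgeR's quasi-likelihood test over all 12191 tested genes, 20 rose with IFN-gamma and 19 fell (adjusted p under 0.05). Those called were 14.4% of the set, against 17.4% of all tested genes and 21.2% of the tested genes with at least 600 counts. Higher genes made up 7.41% of the set, 9.88% of all tested genes and 11.9% of those with at least 600 counts. Lower genes made up 7.04% of the set, 7.56% of all tested genes and 9.23% of those with at least 600 counts. The shares of the set lay a little under the background in both directions, and that difference was not tested. Changes of at least 2-fold were increases only: 8 genes (2.96%) were at least 2-fold higher, against 2.67% of all tested genes and 2.36% of those with at least 600 counts. In the other direction 0 were at least 2-fold lower, against 0.5% and 0.137%. The 4 genes left out by name were all over 2-fold higher, and they count in the backgrounds but not among the 8. The 8 also include 4 rows of a cluster on chromosome 7 that share sequence, described below. Of the 8 genes Gm4841, Gm8979, 3110062M04Rik and 4933412E12Rik had 11, 181, 271 and 277 counts over the untreated libraries, so they passed the limit of 600 counts through the IFN-gamma libraries, where they are high. The median log2 fold change was -0.01 in the set and -0.01 over all tested genes, and the middle of the distribution lay between -0.17 and 0.15 in the set and between -0.19 and 0.17 over all tested genes (lower and upper quartiles).

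The split between directions moved with the scaling. With TMM factors 51.3% of the called genes were higher. Upper-quartile factors gave 14 higher and 28 lower genes (33.3% higher), and scaling by the total counts gave 16 higher and 25 lower genes (39.0% higher). Without untreated replicate 1, and likewise with DESeq2, the lower genes numbered 12 in place of 19. Called genes were more frequent at higher counts, with 8 called of the 90 genes of fewest counts (607 to 1201), 11 of the 90 genes between them (1202 to 2547) and 20 of the 90 genes of most counts (2548 to 41112). Over all tested genes in the same ranges of counts, 12.2%, 15.8% and 27.7% were called.

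Every library of one group lay outside the range of the other in 79 of the 270 genes (29.3%), against 31.8% of all tested genes and 35.9% of those with at least 600 counts. That held for 35 of the 39 called genes, and for 44 genes past no threshold, of which 24 had higher and 20 lower IFN-gamma libraries. Among the 231 genes that did not pass, log2 fold changes ran from -0.45 to 0.42, and in 199 the 95% interval of the change lay inside 1.5-fold in either direction. The other genes of this kind had intervals that reach beyond 1.5-fold, so a change of that size is not excluded for them.

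RefSeq (GRCm38.p6) matched 268 of the 270 rows, 178 by symbol and 90 by an older symbol. Of the matched rows 89 now carry a name that is neither Gm nor Rik. The set held 169 protein-coding genes, 58 lncRNAs and 41 transcribed pseudogenes, and 2 rows (Gm17066 and 2900097C17Rik) had no single match. Protein-coding genes gave 10 higher and 12 lower genes (13.02%), lncRNAs 2 higher and 6 lower (13.79%), and pseudogenes 8 higher and 1 lower (21.95%). Of the 8 higher pseudogenes 4 were rows of a single cluster on chromosome 7 that share sequence, described below. Gm18853 and Gm17757 among them hold the same count in every library, so the 21.95% does not rest on independent genes. Over all tested genes with at least 600 counts, the shares called were 21.1% of protein-coding genes, 21.7% of lncRNAs and 21.9% of transcribed pseudogenes. The median log2 fold change was -0.09 for the 58 lncRNAs and 0.10 for the 41 pseudogenes, beside -0.07 and 0.10 for all such RNAs with at least 600 counts, most of which are these same genes. The medians moved with the scaling, to -0.142 and 0.044 with upper-quartile factors and -0.133 and 0.052 with total counts alone. Of the lncRNAs 39 lay below 0 and 19 above it, and of the pseudogenes 17 lay below 0 and 24 above it.

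**Figure D1:**
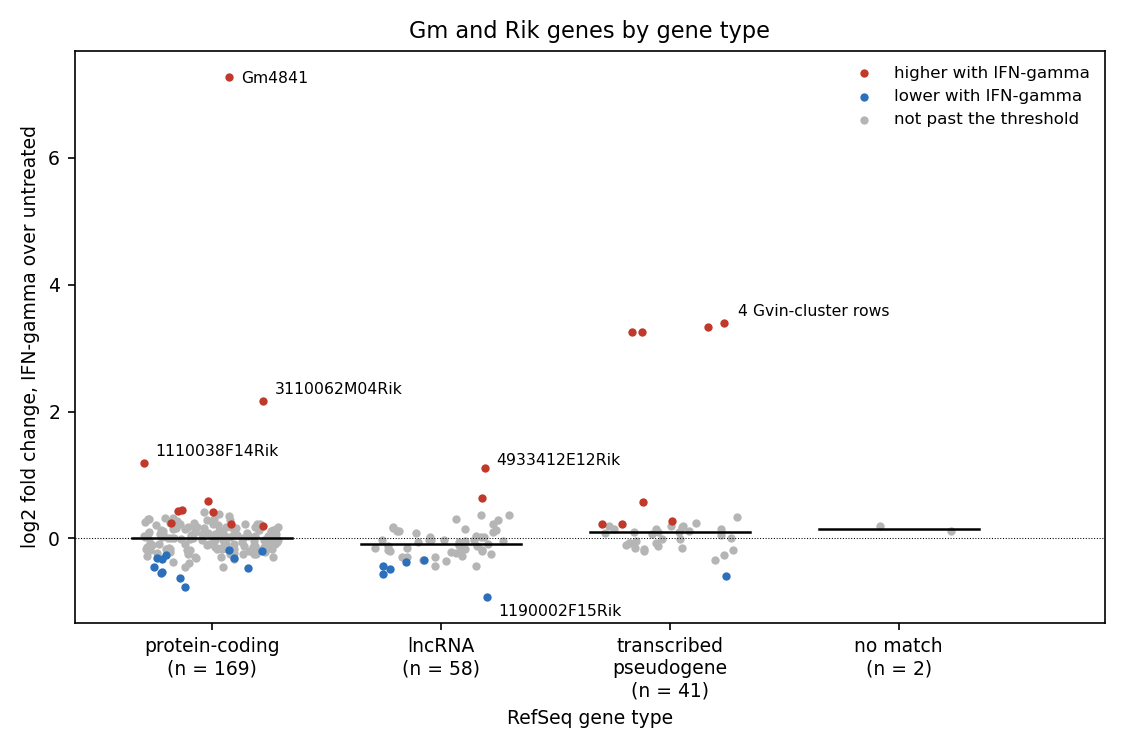
Log2 fold change (IFN-gamma over untreated) of each of the 270 genes, grouped by RefSeq gene type, with a black line at the median of each type. Points spread sideways only for legibility. The 231 grey points sit between -0.45 and 0.42, and 8 red points stand above 1: Gm4841 at 7.28, the 4 Gvin-cluster rows near 3.3, 3110062M04Rik at 2.17, 1110038F14Rik at 1.19 and 4933412E12Rik at 1.10.

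Interferon-inducible GTPases and their pseudogenes held the largest changes. Gm4841, for which RefSeq lists the older name Ifgga3, belongs to the interferon-gamma-induced GTPases, relatives of Iigp1. It had 73.4, 74.2 and 53.9 CPM (counts per 1e6 counts of a library, scaled with TMM factors) in IFN-gamma libraries 1 to 3 and 0.321, 0.408 and 0.523 CPM in untreated libraries 1 to 3. Every IFN-gamma library thus stood far above every untreated one, with replicate 3 the lowest of the treated. The log2 fold change was 7.28 ± 0.23 (SE, adjusted p = 7.19e-27), about 156-fold. Its untreated libraries held 3, 3 and 5 counts, so its place in the set came from the IFN-gamma libraries, which held 1908 of its 1919 counts. On the chromosome its nearest tested genes were Gm4951 (6.62) and F830016B08Rik (8.53), relatives of the same family, followed by Iigp1 (7.57).

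A run of 4 rows on chromosome 7 lies among the Gvin genes, which encode very large interferon-inducible GTPases. Gm8979 had 69.1, 80.9 and 67.2 CPM in IFN-gamma and 6.21, 6.25 and 8.05 CPM in untreated libraries, a log2 fold change of 3.39 ± 0.14 (adjusted p = 2.65e-23). Gm8989 had 136, 145 and 121 CPM in IFN-gamma and 12.8, 10.2 and 16.4 CPM in untreated libraries, a log2 fold change of 3.33 ± 0.12 (adjusted p = 4.61e-23). Gm18853 and Gm17757 carried the same count in every library, 107, 113 and 109 CPM in IFN-gamma and 10.2, 14.1 and 10.6 CPM in untreated libraries, a log2 fold change of 3.25 ± 0.12 (adjusted p = 2.61e-25). In all 4 rows each IFN-gamma library lay above each untreated one, and the differences between the 4 changes were not tested. The protein-coding genes beside them moved by a like amount: Gvin1 by 3.29 ± 0.07 and Gm4070 by 3.26 ± 0.06, while Eif3f, the next tested gene outside the cluster on one side, stood at -0.15 ± 0.08 and Gm15645, on the other side, at 0.00 ± 0.34.

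These rows cannot be counted as 4 independent genes. RefSeq now names Gm17757 as Gm18852, and the GENCODE transcripts (release M21, GRCm38) of Gm18852 and Gm18853 differ at 1 of 3592 aligned bases. The transcripts are 3593 and 3596 bases long, so some bases have no partner in the alignment. Windows of 80 bases around the differing base are shown because it is the only aligned base that differs. They lie on the minus strand at chr7:105926056-105926135 for Gm18852 and chr7:106187464-106187543 for Gm18853. Both are written 5′ to 3′, with the differing base in capitals.
Gm18852: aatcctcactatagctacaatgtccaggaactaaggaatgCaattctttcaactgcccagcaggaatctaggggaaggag
Gm18853: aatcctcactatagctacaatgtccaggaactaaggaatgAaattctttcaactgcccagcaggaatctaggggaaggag
Of the 50-base words of the Gm18852 transcript, 98.6% recur in Gm18853. Gm8979 and Gm8989 are 99.24% identical to each other over 7271 aligned bases, and Gm8979 is 96.39% identical to Gvin1. Of all 50-base words, 98.6% of Gm18852, 99.1% of Gm18853, 81.7% of Gm8979 and 77.8% of Gm8989 recur in another transcript of this family (Gm4070 and Gvin1 included). How the authors assigned reads with several matches is not given in the sources used here, so the level of each row on its own is uncertain, and RefSeq places Gm18853 within the span of Gvin1 and Gm17757 within that of Gm4070.

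A list of 24 Gm and Rik relatives of interferon-induced families, drawn up with earlier results of these data known, had 14 genes on a row. Only 6 had counts enough for the test, and all 6 were higher. Apart from Gm17757 these had 0 to 11 counts in any untreated library and entered the test through the IFN-gamma libraries, so their shared direction follows from the filter and is no result about the list. Besides Gm4841 and Gm17757 the higher genes were Gm12185 (7.05 ± 0.44), 9930111J21Rik1 (3.35 ± 0.90), Gm1966 (3.02 ± 0.47) and Gm12216 (2.89 ± 0.48), whose counts summed to 484, 39, 155 and 155 and so stood outside the set of 270.

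**Figure D2:**
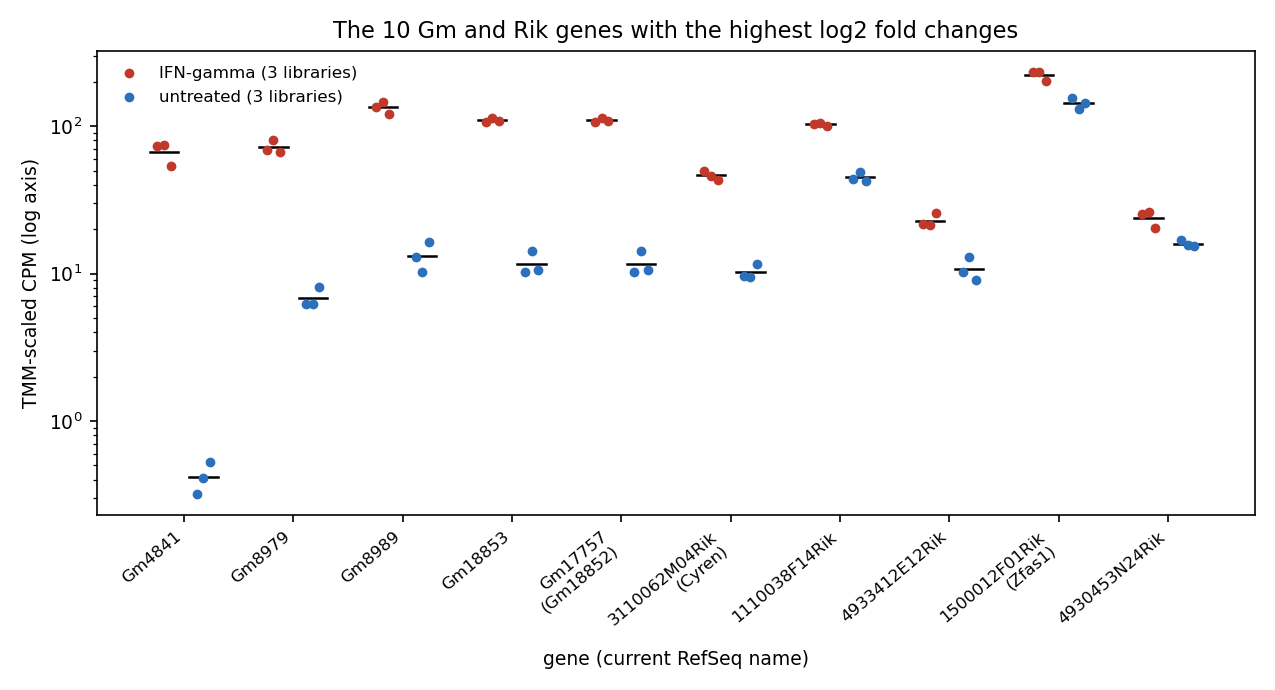
TMM-scaled CPM on a log axis for the 10 higher genes with the highest log2 fold changes. Each point is 1 library, with IFN-gamma in red on the left and untreated in blue on the right of each gene, and black lines mark group means. Gm4841 falls to under 1 CPM in untreated libraries, the Gvin-cluster rows stand between 6.21 and 16.4 CPM there, and in each of the 10 genes the groups do not overlap.

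Away from the GTPase families, 4 protein-coding or non-coding genes rose by over 1.5-fold. 3110062M04Rik is now Cyren, a cell cycle regulator of DNA end joining. It had 49.9, 45.9 and 43.2 CPM in IFN-gamma libraries and 9.63, 9.51 and 11.6 CPM in untreated ones, a log2 fold change of 2.17 ± 0.14 (adjusted p = 2.09e-16) or 4.50-fold. The groups were far apart and each was tight. Its span in RefSeq overlaps that of Tmem140, a transmembrane protein gene on the opposite strand, which had 48.6, 42.7 and 40.1 CPM in IFN-gamma and 5.35, 6.52 and 6.798 CPM in untreated libraries (2.82 ± 0.16). Wdr91, on its other side, stood at -0.01 ± 0.33. Whether the counting used strand is not given in the sources used here, so reads of Cyren and Tmem140 cannot be told apart where they overlap.

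The promoter windows of this pair, from RefSeq (GRCm38.p6, 250 bases before to 50 after the annotated start), are shown because their letters differ in a known interferon element while both counts rose. Cyren's lies at chr6:34878016-34878315 (minus strand) and that of Tmem140 at chr6:34862896-34863195 (plus strand), both written 5′ to 3′. Capitals mark the match to the ISRE core.
Cyren: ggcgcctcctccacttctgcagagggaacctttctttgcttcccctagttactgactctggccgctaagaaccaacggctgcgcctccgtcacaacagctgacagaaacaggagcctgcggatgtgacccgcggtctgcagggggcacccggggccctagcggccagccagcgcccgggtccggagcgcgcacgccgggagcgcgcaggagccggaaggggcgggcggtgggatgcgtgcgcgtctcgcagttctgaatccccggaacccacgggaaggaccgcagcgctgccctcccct
Tmem140: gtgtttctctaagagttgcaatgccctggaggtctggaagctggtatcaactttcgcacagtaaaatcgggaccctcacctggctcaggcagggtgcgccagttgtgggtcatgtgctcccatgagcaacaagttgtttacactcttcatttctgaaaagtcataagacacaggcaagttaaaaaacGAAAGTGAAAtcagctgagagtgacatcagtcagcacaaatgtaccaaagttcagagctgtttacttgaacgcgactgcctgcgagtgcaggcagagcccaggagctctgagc
The match in the Tmem140 window begins at position -63 from the start. The Cyren window held neither the ISRE core nor a GAS element, which says only that these letters are not in this window.

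1500012F01Rik is now Zfas1, an lncRNA that hosts small nucleolar RNAs and is named as the antisense RNA of Znfx1. It had 234, 232 and 203 CPM in IFN-gamma libraries and 156, 130 and 143 CPM in untreated ones, a log2 fold change of 0.64 ± 0.07 (adjusted p = 3.61e-09) or 1.56-fold. IFN-gamma replicate 3 was the lowest of the treated libraries and still lay above the highest untreated one. Its neighbour Znfx1, an RNA helicase gene on the opposite strand, changed by 2.04 ± 0.08 and had 234, 213 and 210 CPM in IFN-gamma and 49.3, 55.3 and 55.6 CPM in untreated libraries. In RefSeq the start sites of Zfas1 and of one Znfx1 form lie 81 bases apart, with the 5′ ends overlapping. As the use of strand in counting is not given, reads of Zfas1 and Znfx1 cannot be told apart where they overlap. The Zfas1 window at chr2:167062684-167062983 (plus strand) is shown because it lies at the 5′ end of both genes.
Zfas1: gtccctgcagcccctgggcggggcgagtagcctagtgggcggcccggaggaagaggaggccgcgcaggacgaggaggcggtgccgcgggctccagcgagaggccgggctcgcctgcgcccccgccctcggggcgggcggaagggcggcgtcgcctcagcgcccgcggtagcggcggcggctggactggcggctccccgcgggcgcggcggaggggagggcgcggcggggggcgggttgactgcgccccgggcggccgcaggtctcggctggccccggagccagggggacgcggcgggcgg
It held neither motif, and nor did either Znfx1 window.

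1110038F14Rik, a protein-coding gene, had 103, 105 and 101 CPM in IFN-gamma and 44.0, 48.6 and 42.5 CPM in untreated libraries, a log2 fold change of 1.19 ± 0.09 (adjusted p = 2.55e-14) or 2.29-fold. Both groups were tight and did not overlap. The next tested gene on one side is Apol6, an apolipoprotein L gene (7.91 ± 0.32), with 3 untested genes between them, and on the other Zfp647 (0.21 ± 0.54).

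4933412E12Rik, an lncRNA, had 21.5, 21.4 and 25.7 CPM in IFN-gamma and 10.2, 13.04 and 8.99 CPM in untreated libraries, a log2 fold change of 1.10 ± 0.17 (adjusted p = 2.99e-06). The groups did not overlap. Its start lies 109 bases from that of Rab3ip, a gene of vesicle traffic read in the opposite direction, which changed by 0.33 ± 0.10 (adjusted p = 0.018). Neither window held either motif.

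Small increases followed in 11 genes of under 1.5-fold, from 4930453N24Rik (0.58 ± 0.15, adjusted p = 0.00434) down to 2810004N23Rik (0.20 ± 0.07). 4930453N24Rik, a protein-coding gene, had 25.3, 26.1 and 20.3 CPM in IFN-gamma and 16.8, 15.6 and 15.5 CPM in untreated libraries, with no overlap. 1110004E09Rik, now Cfap298, a gene of cilia assembly, had 60.5, 61.9 and 60.9 CPM in IFN-gamma and 50.3, 42.2 and 41.2 CPM in untreated libraries (0.45 ± 0.10, adjusted p = 8.84e-04). 1110008P14Rik stood beside it in size at 0.41 ± 0.09 and lies next to Lcn2 (0.35 ± 0.06), an iron-carrier gene. The changes of these 3 kept their calls under every alternative listed in the closing section.

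The remaining small increases were less firm. 2610002M06Rik (0.43 ± 0.11) lost its call without untreated replicate 1 (0.34, adjusted p = 0.065). It overlaps Fam46d, at 1.10 ± 0.47 with an adjusted p of 0.111. 4930594C11Rik, a pseudogene, had 12.5, 15.2 and 21.3 CPM in IFN-gamma and 9.10, 12.9 and 10.98 CPM in untreated libraries, so that its groups overlapped. Its change of 0.57 ± 0.19 (adjusted p = 0.0354) was 0.34 (adjusted p = 0.294) without IFN-gamma replicate 3, which held the highest value. Gm6548, a pseudogene at 0.23 ± 0.07, overlaps Eif2ak2, the gene of the antiviral kinase PKR (1.62 ± 0.10). Reads of Gm6548 and Eif2ak2 cannot be told apart where they overlap. Gm6548 lost its call with upper-quartile factors (0.18, adjusted p = 0.0704). The call was also lost without IFN-gamma replicate 1, untreated replicate 1 or untreated replicate 2 (adjusted p up to 0.125). The calls of 2610507B11Rik (0.24 ± 0.07), Gm7334 (0.28 ± 0.09) and 2810004N23Rik (0.20 ± 0.07) were lost with upper-quartile factors and without at least 2 of the libraries in turn, with adjusted p up to 0.0886, 0.151 and 0.227.

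**Figure D3:**
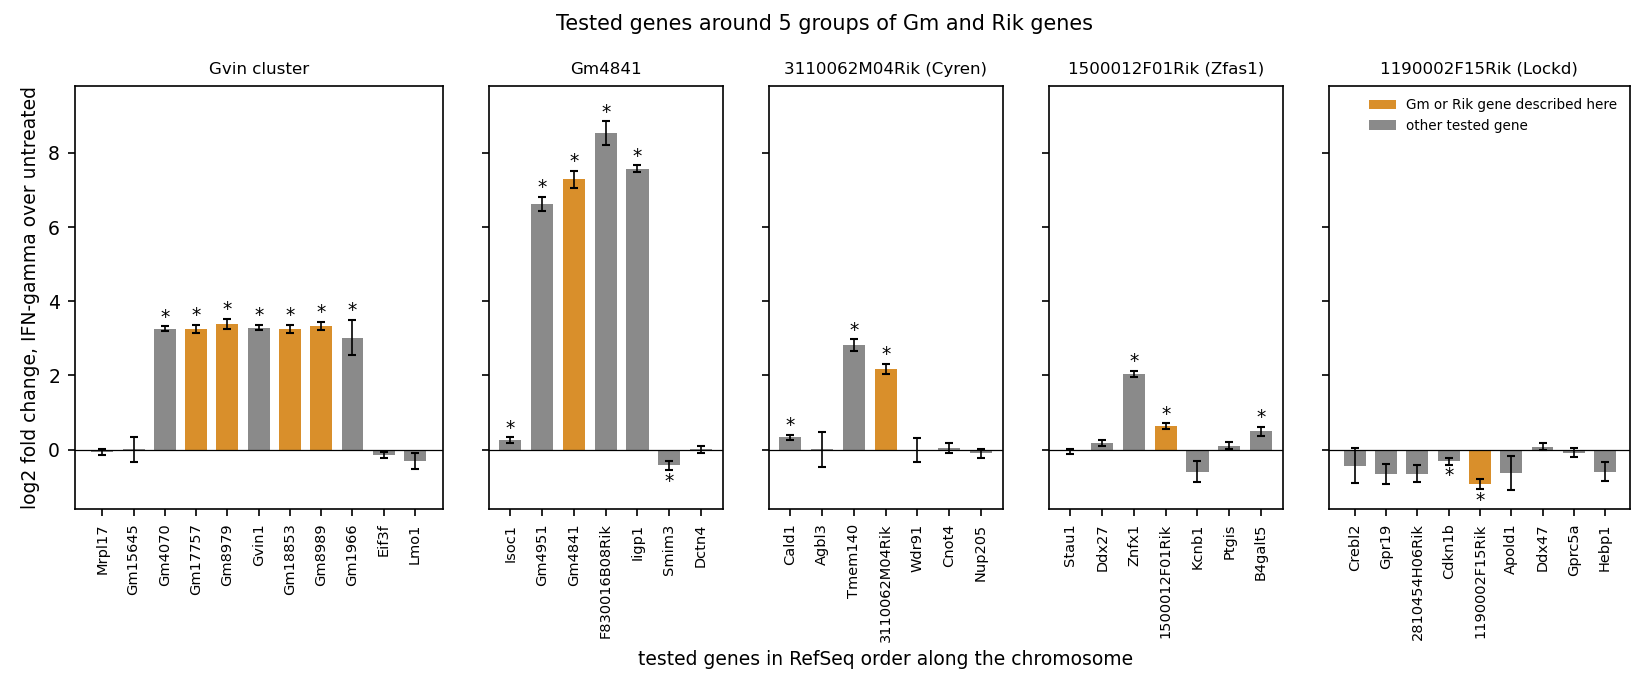
Log2 fold change (bars) with its standard error (whiskers) of the tested genes in RefSeq order around 5 groups of Gm and Rik genes, with orange bars for genes of the set of 270, grey bars for other genes and an asterisk for an adjusted p under 0.05. The Gvin cluster and the Gm4841 cluster are raised as blocks, Cyren and Zfas1 stand beside 1 raised neighbour each, and Lockd at -0.92 stands beside Cdkn1b at -0.31.

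The lower genes moved by less, and 4 of the 19 fell by over 1.5-fold. 1190002F15Rik is now Lockd, an lncRNA named for its place downstream of Cdkn1b, the gene of the cell cycle inhibitor p27. It had 13.6, 17.6 and 18.02 CPM in IFN-gamma libraries and 29.1, 34.1 and 30.02 CPM in untreated ones, a log2 fold change of -0.92 ± 0.14 (adjusted p = 4.19e-06), or 1.90-fold lower. The highest IFN-gamma library lay well below the lowest untreated one. Cdkn1b had 58.8, 62.5 and 59.6 CPM in IFN-gamma and 73.5, 78.7 and 72.7 CPM in untreated libraries (-0.31 ± 0.09, adjusted p = 0.0103). On the far side of Cdkn1b, 2810454H06Rik stood at -0.65 ± 0.24 (adjusted p = 0.0558) and Gpr19 at -0.65 ± 0.27 (adjusted p = 0.0985), neither past the threshold. Of the tested genes beyond Lockd, Apold1 stood at -0.62 ± 0.46 and Ddx47 at 0.08 ± 0.10.

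Next in size were protein-coding genes and a pseudogene at low counts. 4930579G24Rik had 8.94, 6.14 and 13.04 CPM in IFN-gamma and 16.1, 15.1 and 16.6 CPM in untreated libraries, and its IFN-gamma libraries were the most spread of the whole set (coefficient of variation 37.0%). Its change of -0.77 ± 0.20 (adjusted p = 0.00516) was -0.55 (adjusted p = 0.0595) without IFN-gamma replicate 2, which held the lowest value. 4930503L19Rik, also listed as Las2, had 17.7, 24.7 and 25.5 CPM in IFN-gamma and 39.3, 36.0 and 28.8 CPM in untreated libraries (-0.62 ± 0.14, adjusted p = 0.00134). Its span overlaps that of Stard6 (-0.74 ± 0.22), a lipid transfer protein gene, and reads of the pair cannot be told apart where they overlap. Stard6 had 7.45, 9.15 and 12.2 CPM in IFN-gamma and 21.7, 15.1 and 10.9 CPM in untreated libraries, so its groups overlapped. Gm5069, a pseudogene, had 11.8, 9.26 and 10.1 CPM in IFN-gamma and 16.5, 15.6 and 14.96 CPM in untreated libraries (-0.59 ± 0.18, adjusted p = 0.0166). Its groups did not overlap, yet it lost its call without IFN-gamma replicate 2 (adjusted p = 0.0766) or untreated replicate 1 (adjusted p = 0.066).

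The lncRNAs 4930447F24Rik and 9230114K14Rik and the protein-coding Gm1673 fell by under 1.5-fold. 4930447F24Rik had 27.2, 28.6 and 31.3 CPM in IFN-gamma and 44.3, 44.0 and 39.95 CPM in untreated libraries (-0.56 ± 0.12, adjusted p = 3.53e-04). Gm1673 had 51.4, 54.9 and 61.4 CPM in IFN-gamma and 91.1, 74.6 and 78.3 CPM in untreated libraries (-0.55 ± 0.10, adjusted p = 3.0e-05). 9230114K14Rik had 25.6, 28.0 and 30.5 CPM in IFN-gamma and 31.4, 44.3 and 42.5 CPM in untreated libraries (-0.49 ± 0.13, adjusted p = 0.00509). None of these 3 had overlapping groups, and 9230114K14Rik lost its call without untreated replicate 2 (-0.40, adjusted p = 0.0583).

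2310045N01Rik, now Borcs8, a subunit of the lysosome-positioning complex BORC, had 11.6, 14.2 and 14.8 CPM in IFN-gamma and 22.4, 14.4 and 21.5 CPM in untreated libraries (-0.54 ± 0.17, adjusted p = 0.0253). Untreated replicate 2 lay inside the range of the treated libraries. The call was lost with DESeq2 (adjusted p = 0.0813) and without IFN-gamma replicate 1, untreated replicate 1 or untreated replicate 3 (adjusted p up to 0.155). 2700097O09Rik (-0.48 ± 0.17) and 2700049A03Rik (-0.46 ± 0.15) lost theirs with DESeq2 too (adjusted p = 0.094 and 0.0602) and without untreated replicate 3 (adjusted p = 0.159 and 0.153), among other libraries. 2700049A03Rik overlaps Dact1, a Wnt pathway gene that went the other way (1.199 ± 0.216).

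**Figure D4:**
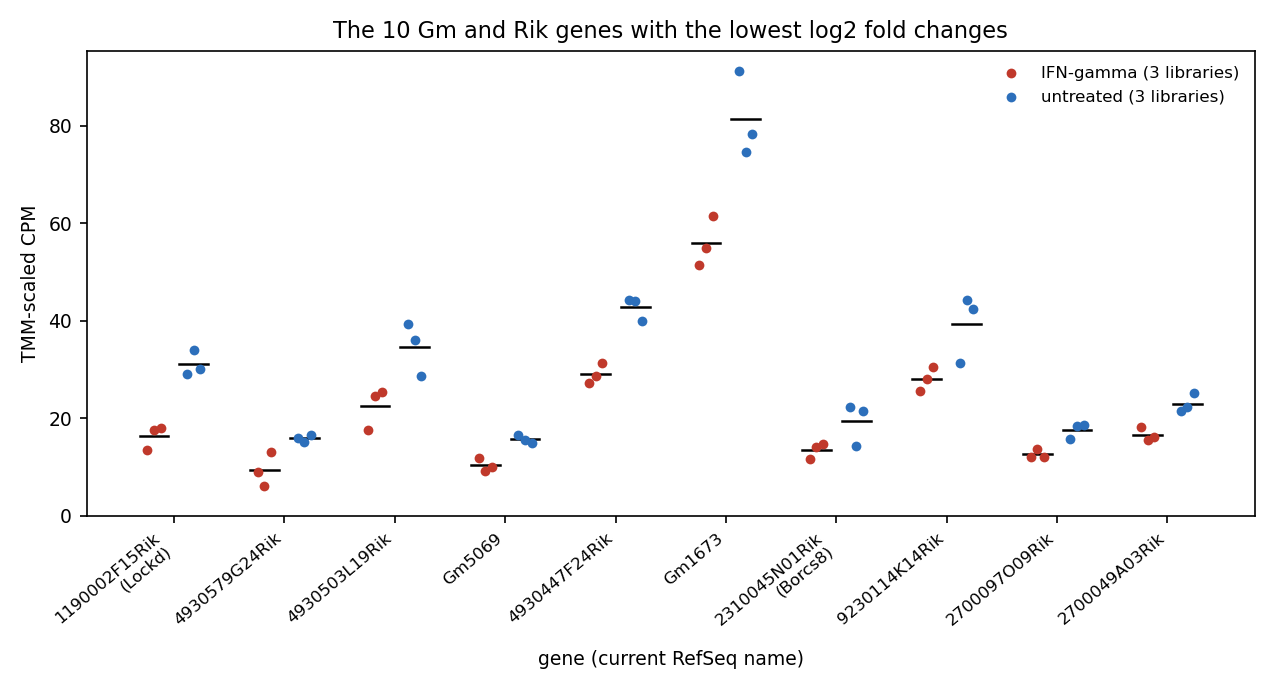
TMM-scaled CPM on a linear axis from 0 for the 10 lower genes with the lowest log2 fold changes. Each point is 1 library, with IFN-gamma in red on the left and untreated in blue on the right of each gene, and black lines mark group means. The groups overlap in 1 gene of the 10, 2310045N01Rik, and the gap between them is widest in proportion for 1190002F15Rik (Lockd).

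Pclaf and Hjurp, known from DNA replication and from centromeres, were among the small decreases. 2810417H13Rik, now Pclaf, encodes a partner of the replication clamp PCNA. It had 241, 255 and 254 CPM in IFN-gamma and 278, 319 and 300 CPM in untreated libraries (-0.26 ± 0.06, adjusted p = 0.0022), with no overlap. 6430706D22Rik matches Hjurp, which loads the centromeric histone CENP-A, and had 128, 133 and 128 CPM in IFN-gamma and 156, 172 and 161 CPM in untreated libraries (-0.33 ± 0.07, adjusted p = 4.43e-04). Hjurp also has a row under its own name (-0.35 ± 0.07). How reads were assigned between rows of the same gene is not given, so these 2 rows may not be separate measurements. A further row that matches Hjurp, A730008H23Rik, had 20.3, 26.8 and 21.5 CPM in IFN-gamma and 24.3, 25.7 and 23.2 CPM in untreated libraries (-0.09 ± 0.14, adjusted p = 0.719), and its groups overlapped.

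Selenoh (2700094K13Rik), a nuclear selenoprotein gene, changed by -0.31 ± 0.07 (adjusted p = 0.00196) and kept its call under every alternative, as did Pclaf and 6430706D22Rik. The other lower genes, Tcim (1810011O10Rik), B230219D22Rik, D030056L22Rik, C430049B03Rik, Gm16617 and 3110045C21Rik, ran from -0.19 to -0.44 and each lost its call without at least 2 of the libraries in turn, with adjusted p up to 0.0633 (D030056L22Rik), 0.133 (B230219D22Rik), 0.158 (C430049B03Rik), 0.188 (3110045C21Rik) and 0.192 (Gm16617). Tcim, at -0.19 ± 0.07 with an adjusted p of 0.0495, reached up to 0.301 without untreated replicate 3. C430049B03Rik, an lncRNA whose span in RefSeq holds microRNA genes of the Mir322 and Mir503 cluster, had 34.8, 34.3 and 31.5 CPM in IFN-gamma and 46.5, 41.7 and 39.8 CPM in untreated libraries (-0.35 ± 0.11, adjusted p = 0.0268). Its groups did not overlap, and without untreated replicate 1 the value was -0.28 (adjusted p = 0.158).

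The rows with the most counts did not change much. Gm1821, a ubiquitin B pseudogene now named Ubb-ps, stands on 2 rows. The larger had 807, 751 and 760 CPM in IFN-gamma and 733, 718 and 750 CPM in untreated libraries (0.07 ± 0.05, adjusted p = 0.388), and its 95% interval ran from -0.03 to 0.18. The smaller had 255, 231 and 237 CPM in IFN-gamma and 213, 200 and 204 CPM in untreated libraries (0.23 ± 0.06, adjusted p = 0.00773), and lost its call without IFN-gamma replicate 1 (adjusted p = 0.0658) or untreated replicate 2 (adjusted p = 0.0542). The same symbol thus gave 1 row past the threshold and 1 not.

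Whether other highly counted genes of the set passed the threshold moved with single libraries. Gm6654, a pseudogene, had 640, 658 and 491 CPM in IFN-gamma and 491, 542 and 524 CPM in untreated libraries (0.20 ± 0.10, adjusted p = 0.212). Gm5148 had 573, 539 and 421 CPM in IFN-gamma and 459, 415 and 422 CPM in untreated libraries (0.24 ± 0.10, adjusted p = 0.137). In both, IFN-gamma replicate 3 lay with the untreated libraries, and without it the values were 0.32 (adjusted p = 7.24e-06) for Gm6654 and 0.37 (adjusted p = 1.69e-06) for Gm5148. C330021F23Rik, now Rps23rg1, a retrogene of a ribosomal protein gene, had 415, 402 and 318 CPM in IFN-gamma and 342, 316 and 316 CPM in untreated libraries (0.22 ± 0.08, adjusted p = 0.0426). Its IFN-gamma replicate 3 was low as well, but its call held without that library. The call was lost with upper-quartile factors (0.17, adjusted p = 0.149) and without IFN-gamma replicate 1, IFN-gamma replicate 2, untreated replicate 2 or untreated replicate 3 (adjusted p up to 0.202). The lncRNA 2410006H16Rik had 438, 369 and 377 CPM in IFN-gamma and 368, 316 and 358 CPM in untreated libraries (0.18 ± 0.07, adjusted p = 0.052). It passed the threshold with DESeq2's size factors in edgeR (adjusted p = 0.0491) and without IFN-gamma replicate 2, IFN-gamma replicate 3 or untreated replicate 1 (adjusted p of 0.0111, 0.0299 and 0.0448).

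Some genes of the set with a settled name stayed close to 0. Mir100hg (3110039I08Rik), the host of a microRNA cluster, had 280, 302 and 287 CPM in IFN-gamma and 297, 282 and 271 CPM in untreated libraries (0.03 ± 0.06, 95% interval -0.09 to 0.15). Resf1 (2810474O19Rik), a silencer of retroelements, had 311, 296 and 304 CPM in IFN-gamma and 279, 272 and 278 CPM in untreated libraries (0.14 ± 0.06, adjusted p = 0.115), with no overlap though not past the threshold. The 3 values nearest to 0 were those of 2810006K23Rik, 2410002F23Rik and Gm8234, whose 95% intervals all lay between -0.33 and 0.33.

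Among 26 non-coding RNAs with names of their own, 22 had a row and 19 were tested, of which 2 were higher and 4 lower. Malat1 (0.23 ± 0.05) and Gas5 (0.19 ± 0.06) rose, and Neat1 (-0.29 ± 0.05), Xist (-0.17 ± 0.05), Rpph1 (-0.81 ± 0.22) and H19 (-1.59 ± 0.39) fell. Over all tested lncRNAs with at least 600 counts, 9 were higher and 14 lower of 106. That limit was not set for the list of 26. Of its lower RNAs, Rpph1 and H19 lie under the limit, with 506 and 188 counts over the libraries. Named lncRNAs of the set past no threshold included Wincr1 (Gm12603), with 79.6, 76.9 and 83.3 CPM in IFN-gamma and 68.9, 66.0 and 70.3 CPM in untreated libraries (0.22, adjusted p = 0.0688) and no overlap of the groups. Others were Chaserr (1810026B05Rik, 0.16), Snhg15 (Gm11974, 0.09), Morrbid (Gm14005, -0.18), Oip5os1 (1700020I14Rik, -0.19) and Snhg14 (C230091D08Rik, -0.29).

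The genes beside those of the set on the chromosome were compared next. The rule did not use position, but it left out by name some genes that are neighbours here. These are Gm4951 and F830016B08Rik beside Gm4841, and Gm4070 beside Gm17757. Some raised neighbours, such as F830016B08Rik and Apol6, had 0 to 3 counts in any untreated library and entered the test through the IFN-gamma libraries. For each of 268 genes the nearest tested gene on either side was taken in RefSeq order. Of the 20 higher genes 11 (55%) stood beside a higher gene, against 5 of the 19 lower genes (26.3%) and 36 of the 229 that did not pass (15.7%). A neighbour at least 2-fold higher was present for 9 higher genes (45%), 2 lower genes (10.5%) and 7 of those that did not pass (3.06%). The 9 were Gm4841, the 4 Gvin-cluster rows, Cyren, 1110038F14Rik, Zfas1 and Gm6548, and the GTPase rows among them neighbour each other. The 4 Gvin-cluster rows share sequence, and Gm18853 and Gm17757 hold the same counts. Gm4841, Gm8979 and Cyren passed the limit on counts through the IFN-gamma libraries, where they are high. Both points can raise the shares of the higher genes, and the share over all tested genes is not given for comparison. Whether higher genes stand beside higher genes more often than other tested genes was thus not tested. In 5 of the 11 higher genes beside a higher gene the spans overlap. The share of genes with any overlapping neighbour was 35%, 36.8% and 35.8% in the higher, lower and not passing genes.

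A raised neighbour did not always go with a raised gene. D930016D06Rik, now Thoc2l, lies beside Gbp8, a guanylate-binding protein gene at 8.82, and had 15.2, 16.4 and 13.8 CPM in IFN-gamma and 14.8, 8.69 and 12.97 CPM in untreated libraries (0.30, adjusted p = 0.291). Its groups overlapped. Gm15800, now Hectd4, lies beside Trafd1 (2.21) and stood at 0.15, 2210016L21Rik lies beside Oasl1 (1.69) and stood at 0.06, and D930015E06Rik, now Tmem131l, lies beside Tlr2 (1.32) and stood at -0.17. Tcim, which was lower at -0.19, lies next to Ido2 (3.06), a gene of tryptophan breakdown. Lower neighbours stood beside 3 of the 19 lower genes (15.8%) and 36 of the 229 that did not pass (15.7%).

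Across all 535 pairs of a gene and its neighbour, log2 fold changes had a Pearson r of 0.66 and a Spearman rho of 0.10. Without the 8 genes of over 1 log2 unit, 519 pairs gave an r of 0.06 and a rho of 0.03. These are descriptions over genes that share libraries, and in part share neighbours and reads.

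**Figure D5:**
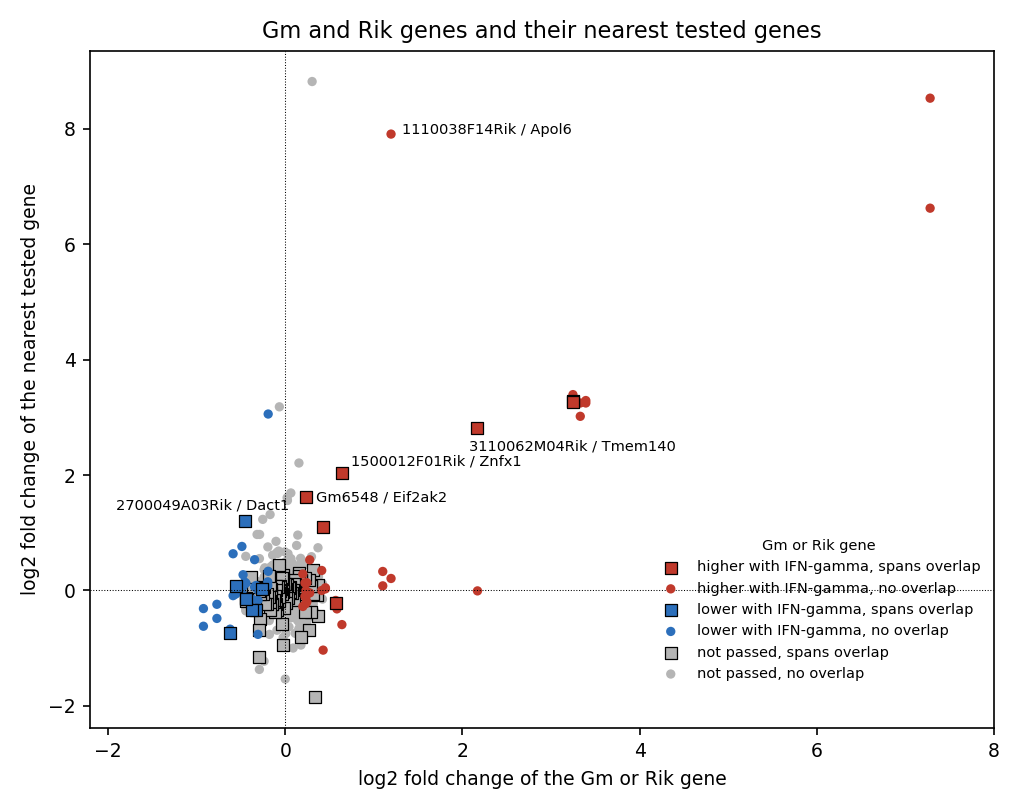
Log2 fold change of each Gm or Rik gene (horizontal axis) and of the nearest tested gene on either side (vertical axis), 535 pairs, with squares where the RefSeq spans overlap and circles where they do not. Red marks higher genes, blue lower genes and grey genes past no threshold. Most pairs lie close to 0 on both axes, and the pairs far to the upper right are those of Gm4841, the Gvin cluster and Cyren with Tmem140.

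Promoter windows of 300 bases were searched on both strands for a GAS element (TTCNNNGAA) and for the ISRE core (2 GAAA words with 2 bases between them). Matches of the motifs may overlap each other. Of all 32851 windows 8.3% held the first and 3.44% the second. The 10 windows found for the 20 higher genes came from 10 of them and held neither. For the other higher genes no window was found, so the search says nothing about them. So few windows are also too few to compare with the shares of all windows. Of the 17 windows of lower genes 2 (11.8%) held a GAS element, those of B230219D22Rik and 4930447F24Rik, and 0 held the ISRE core. Of 196 windows of genes that did not pass, 18 (9.18%) held a GAS element and 3 (1.53%) the ISRE core, in 0610012G03Rik, Bmt2 (B630005N14Rik) and 4930526I15Rik. No window of the set held both.

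Replicates of the 270 genes were about as close in both groups, with a median coefficient of variation of 8.59% in IFN-gamma and 7.83% in untreated libraries. The widest spread among untreated libraries was that of 4930526I15Rik (32.7%), an lncRNA with 15.5, 15.7 and 19.2 CPM in IFN-gamma and 17.9, 29.6 and 17.0 CPM in untreated libraries (-0.35, adjusted p = 0.194). Untreated replicate 2 alone was high there. Gm20604 carried the same counts as Moap1 in every library, so its value (0.18 ± 0.17) is no separate measurement.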

How the data were processed

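RNA-seq gene counts were analysed for 3 IFN-gamma and 3 untreated TC-1 libraries, grouped by the treatment that the sample titles give. Per the labels' protocols, TRIzol was used for extraction and each sample lists 2 kits, one stranded with prior poly(A) selection and one for 3′ end sequencing. Which of them gave these values is not stated, so levels of different genes are not taken as their relative expression. Ranks and limits by counts, and the sums over markers, only describe the rows of the table. The submitters' processing notes list Bowtie2, edgeR and hg19, a human build, while 268 of the 270 symbols matched mouse RefSeq genes. Coordinates given here therefore belong to the reference tables and not to the authors' alignment. The deposited table held counts, which are whole numbers per gene and not normalized. It also held log2 normalized values made by the authors, which served 1 alternative. Differences between any 2 libraries exceeded sampling noise.

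The test was the robust quasi-likelihood fit of edgeR 4.0.16 (R 4.3.3) with no covariate, after filterByExpr and with TMM factors and Benjamini-Hochberg adjustment over 12191 genes at a threshold of 0.05. The biological coefficient of variation was 0.0871. Standard errors were derived from the F statistic of each gene, with 95% intervals from a normal approximation. The members and lists were chosen with earlier results of these data known. Named genes were the 10 most raised and the 10 most lowered of the called genes, the 5 with the most counts, the 3 nearest to 0 and relatives of interferon-induced families. Others, such as Mir100hg, Resf1, Hjurp, Pclaf, Selenoh and the neighbours, were chosen after their values were seen. Gvin transcripts were aligned with Biopython 1.88. On data simulated from these libraries (12191 genes), the test recovered 7 of the 50 genes set to 1.25-fold, 28 of the 50 set to 1.5-fold, 41 of the 50 set to 2-fold and 47 of the 50 set to 4-fold, and 11 of its 134 calls were false. The alternatives were other scaling factors, no filter, DESeq2 1.42.0, limma 3.58.1 on deposited log2 values, a block by replicate number, leaving out each library in turn, other limits on counts, and leaving out repeated rows.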

Additional observations from a re-analysis of the deposited data

How the results depend on the processing

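Under 13 other fits, 19 of the 39 called genes (12 higher, 7 lower) kept their call and direction in each, and 20 lost it in at least 1. No called gene changed sign in any of them. Higher genes numbered 14 with upper-quartile factors, 16 with total counts alone, 21 with DESeq2's size factors in edgeR, 24 without the filter, 18 with DESeq2 and 19 when limma was run on deposited log2 values. Lower genes numbered 28, 25, 18, 17, 12 and 18 in the same order. The median log2 fold change over the 270 genes was -0.013, against -0.064 with upper-quartile factors, where the median of all tested genes was -0.059, and -0.056 with total counts alone, where it was -0.051. Leaving out 1 library gave 15 to 28 higher genes, 12 to 17 lower genes and medians of -0.027 to -0.002. The lowest counts came without untreated replicate 3 (15 higher, 13 lower) and untreated replicate 1 (16 higher, 12 lower), and the highest without IFN-gamma replicate 3 (28 higher, 17 lower). 2410002F23Rik, at 0 in the full fit, ran between -0.18 (without untreated replicate 3) and 0.21 (without untreated replicate 1, adjusted p = 0.489), and the cause was not tested.

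A limit of 1200 counts left 180 genes with 17 higher and 14 lower, a limit of 300 counts gave 381 genes with 23 higher and 25 lower, and 263 genes remained without rows equal to another row or with a repeated symbol (17 higher, 19 lower). Same-numbered libraries did not deviate together (correlations of their deviations of 0.003, 0.041 and -0.001), so the numbers were not taken to pair the samples. A replicate block gave 22 higher and 20 lower genes and a median of -0.013, and all 39 called genes kept their call under it. Of the genes of fewest counts 8 of 90 were called, against 20 of 90 of those of most counts, and the part of depth in this was not tested.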
